A study of Rattus norvegicus with 9 samples.

Results

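Solute carriers are membrane proteins that move ions, sugars, organic acids, metals, vitamins and lipids across the plasma membrane and the membranes of organelles. In the kidney, carriers of the brush border take solutes from the filtrate into tubule cells, carriers of the basolateral membrane pass them on to the blood, and others load lysosomes, endosomes and the Golgi. The carriers described here are those outside the large renal families of sodium-coupled glucose, amino acid, chloride, dicarboxylate, organic ion, phosphate and mitochondrial transport. They were chosen by name: every gene whose symbol begins with Slc and a number, without Slc3a, Slc5a, Slc6a, Slc7a, Slc12a, Slc13a, Slc22a, Slc25a and Slc34a and without Slc1a1, Slc4a1, Slc4a4, Slc26a4 and Slc40a1. The rule gave 139 genes of the 11235 in the table of expressed genes, out of 235 genes with an Slc number there. Of these, 138 are carriers in 12 substrate families, and Slc4a1ap is an adaptor protein named after a carrier.

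Poly(A) RNA was sequenced from kidneys of wild-type Sprague-Dawley rats aged 6 to 8 weeks and weighing 200 to 220 g, in 3 groups of 3 libraries. Sham rats had a mock operation. Rats of the ischaemia-reperfusion (I/R) group had the left renal artery clamped for 45 min and then released. Rats of the I/R + rapamycin group were injured in this way and given rapamycin, a blocker of mTOR complex 1. The labels differ on the treatment: the series design gives male rats and 1 mg/kg per day into the peritoneum, and the sample protocol gives both sexes, 1 or 2 mg/kg per day by gavage, and 3 or 7 days of reperfusion in 6 groups. Which dose, route and reperfusion time apply to these libraries is therefore unsettled. Separate animals are not stated for the libraries of a group, and the spread on which each p-value rests may then be technical.

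The labels name kidney as the tissue and renal tubular cell as the cell type. Markers of tubule segments were present, and so were all 5 podocyte, all 5 endothelial and all 5 fibroblast and mural cell markers looked for, so the RNA was not of tubule cells alone. In such bulk RNA, fewer cells of a type and less RNA per cell cannot be told apart. Total counts ranged from 44582251 to 60538627 per library, and the lowest count of any of the 139 genes in any library was 68. Summed podocyte markers were at 686 to 702 CPM (counts scaled to library size) in sham, 452 to 636 in I/R and 423 to 593 in I/R + rapamycin. Summed proximal tubule markers overlapped between the groups, at 11510 to 16582 CPM, 12956 to 15553 CPM and 11218 to 13276 CPM. Of the marker lists, the 3 haemoglobin genes measured for red blood cells had the median log2 fold change farthest from 0, -3.37 in I/R + rapamycin against I/R. They summed to 245 to 2552 CPM in sham, 1242 to 3332 CPM in I/R and 84.8 to 524 CPM in I/R + rapamycin, without overlap between the last 2 groups. Of 6 listed markers of injured tubules, 4 were measured by name. In I/R against sham, Lcn2, Vcam1 and Clu had log2 fold changes of -0.16, -0.09 and -0.80, all with overlapping groups. Spp1 was at 125 to 132 CPM in sham and at 199, 214 and 674 CPM in I/R (1.49, edgeR adjusted p = 0.501). The part of podocytes, blood cells and injured tubules in the results was not tested.

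The most abundant single carriers were those of fatty acids, glucose 6-phosphate and monocarboxylates. Levels between genes are compared in the deposited FPKM, which are fragments scaled to transcript length and sequencing depth. Mean FPKM over the 9 libraries ranged from 1.43 to 189 with a median of 7.81, and 59 of the 139 genes were at 10 FPKM or more. The most abundant was Slc27a2, a fatty acid transport protein and very long chain acyl-CoA synthetase, at 201 ± 20.2 FPKM in sham, 185 ± 19.5 in I/R and 181 ± 14.8 in I/R + rapamycin (SD, n = 3 each). Next came Slc37a4, which carries glucose 6-phosphate into the endoplasmic reticulum, at a mean of 91.4 FPKM over all libraries. These groups overlapped in every comparison. Their order and that of Slc16a4, at 76.1 FPKM, was set apart by more than the range of their libraries only for Slc27a2, whose lowest library, at 163 FPKM, lay above the highest of Slc37a4, at 97.9 FPKM, while the highest Slc16a4 library, at 96.2 FPKM, lay above the lowest of Slc37a4, at 79.2 FPKM.

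Families were assigned by SLC number, so that Slc49a4, linked to vitamin B6 export, counts with the carriers of haem and metals, and Slc43a3, a nucleobase carrier, with those of amino acids. The 23 carriers of zinc, iron, copper and haem held 17.2% of the summed FPKM and the 12 monocarboxylate carriers held 16.3%. The 13 carriers of bile acids, fatty acids, choline and steroids held 14.1%, of which most was Slc27a2. The 18 carriers of nucleotide sugars and acetyl-CoA, the substrates for glycosylation and acetylation inside the Golgi and endoplasmic reticulum, held 9.97%. The 15 sugar carriers held 9.30%, the 16 amino acid and peptide carriers 9.17%, and the 13 carriers of bicarbonate, protons and other small anions 7.37%. The smaller families were phosphate and type 1 anion carriers (6 genes, 4.64%), vitamins (10 genes, 4.27%), urea, amines and drug extrusion (3 genes, 3.35%), nucleosides (5 genes, 2.71%) and calcium and magnesium (4 genes, 1.32%). The family named for urea, amines and drug extrusion held Slc18a2, Slc18b1 and Slc47a1, and no urea carrier. Summed over the 139 genes, FPKM was 2064 ± 109 in sham, 2137 ± 90.7 in I/R and 1974 ± 109 in I/R + rapamycin (SD, n = 3). Sham overlapped both other groups, while the lowest I/R library, at 2050.23, lay just above the highest I/R + rapamycin library, at 2049.77.

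**Figure D1:**
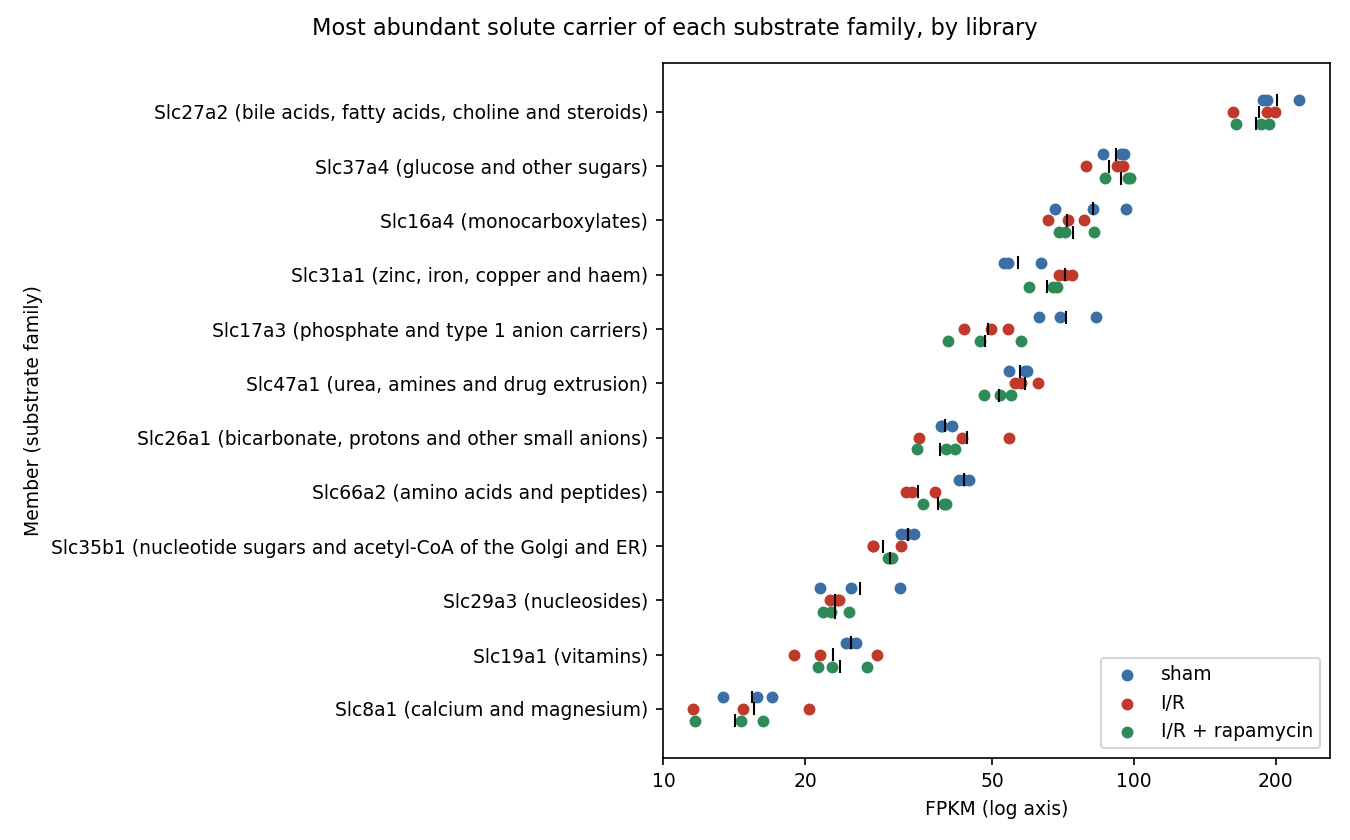
Deposited FPKM (log axis) of the most abundant carrier of each of the 12 substrate families, 1 point per library, 3 libraries per group, with a black bar at each group mean. The I/R points lie apart from all sham points in Slc31a1, Slc17a3, Slc66a2 and, narrowly, Slc35b1 (at most 31.9 FPKM against at least 32), and overlap them in the other 8. In TMM-scaled CPM, which the counts of groups without overlap use, Slc35b1 overlaps, with I/R 2 above sham 1.

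Each remaining family had its own leading carrier. Slc47a1, which extrudes organic cations and drugs into the urine, was at 55.9 FPKM, and Slc26a1, a sulfate and oxalate exchanger of the basolateral membrane, was at 40.8 FPKM. Slc35b1, a nucleotide carrier of the endoplasmic reticulum, was at 30.9 FPKM, the lysosomal nucleoside carrier Slc29a3 at 24.2 FPKM, and the reduced folate carrier Slc19a1 at 23.9 FPKM. Slc8a1, the sodium-calcium exchanger, led the smallest family at 15.1 FPKM. Its relative Slc8a2, at 2.99 FPKM, had the smallest p of that family and kept within 23.4 to 27.8 CPM in all libraries. Slc4a1ap, the adaptor, was at 5.57 FPKM and between 15 and 18.3 CPM.

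The comparison of I/R with sham asks what the injury changed. None of the 139 genes passed edgeR's quasi-likelihood test at a Benjamini-Hochberg adjusted p under 0.05, against 10 of all 17335 genes tested (0.0577%). At an unadjusted p under 0.05 there were 20 of the 139, 13 of them higher and 7 lower, against 9.42% of all genes (4.83% higher and 4.59% lower). DESeq2 called 6, against 1.49% of the genes it adjusted: Slc49a4, Slc66a2, Slc31a2 and Slc17a3 lower and Slc45a4 and Slc39a5 higher. In 17 genes the 3 I/R libraries lay outside the sham range (14.6% of all genes), 12 of them higher and 5 lower (7.43% and 7.19% of all genes). The median log2 fold change was 0.05, beside 0.00 over all genes, and 86 of the 139 fitted values were above 0, beside 50.7% of all genes.

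The lower ones were of several kinds. Lysosomal carriers lay on both sides of 0, with Slc36a1 at a log2 fold change of 0.58 and overlapping groups. Slc49a4 is a lysosomal membrane carrier linked to vitamin B6 export. It was at 75.1, 91.1 and 68.1 CPM in sham and at 57, 55.8 and 47.1 CPM in I/R. Every I/R library was lower than every sham library (log2 fold change -0.55 ± 0.13 SE, edgeR adjusted p = 0.253, DESeq2 adjusted p = 0.0193). Slc66a2, a PQ-loop membrane protein grouped here with amino acid carriers by its number, was at 115, 126 and 116 CPM in sham and at 98.9, 92.5 and 89.5 CPM in I/R. These groups did not overlap either (-0.35 ± 0.0815 SE, edgeR adjusted p = 0.251, DESeq2 0.0122). Slc17a3, a urate and organic anion carrier of the type 1 phosphate family, was at 164, 194 and 225 CPM in sham and at 140, 138 and 114 CPM in I/R. Its log2 fold change was -0.57 ± 0.147 (SE, edgeR adjusted p = 0.276, DESeq2 0.0232), with no overlap.

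The 2 copper carriers lay on opposite sides of 0. Slc31a1 is the copper importer of the plasma membrane, and Slc31a2 is its relative in endosomes and lysosomes. Slc31a2 was at 28.2, 30.5 and 24.4 CPM in sham and within 20.4 to 21.1 CPM in I/R (a log2 fold change of -0.42 ± 0.101 SE, edgeR adjusted p = 0.266, DESeq2 0.0268). Slc31a1 was at 229, 248 and 284 CPM in sham and at 304, 339 and 300 CPM in I/R (0.31 ± 0.108 SE, edgeR adjusted p = 0.409). Both sets of groups were without overlap. The FPKM ratio of Slc31a2 to Slc31a1 was 0.211 ± 0.0407 in sham and 0.126 ± 0.00874 in I/R (SD, n = 3), lower in every I/R library than in every sham library. The two-sided exact permutation test of its logarithm gave p = 0.10, the smallest that 3 against 3 allows. The ratio was formed after both genes were seen to lie apart from sham on opposite sides. Its separation follows from theirs, and this p adds no support.

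Of the higher ones, Slc39a5, a zinc importer, was at 42.0, 45.0 and 45.2 CPM in sham and at 51.7, 68.9 and 65.4 CPM in I/R. The log2 fold change was 0.49 ± 0.125 (SE, edgeR adjusted p = 0.274, DESeq2 0.0418), and all I/R libraries lay above sham. Slc45a4, of a sugar carrier family, was at 29.4, 26.8 and 29.5 CPM in sham and at 40.4, 33 and 41.8 CPM in I/R, also without overlap (0.43 ± 0.105 SE, edgeR adjusted p = 0.266, DESeq2 0.0393). Slc2a5, the fructose transporter, was at 27.4, 28 and 29 CPM in sham and at 44.9, 32.6 and 51 CPM in I/R. Its log2 fold change was 0.61 ± 0.197 (SE, edgeR adjusted p = 0.381), and DESeq2 did not call it. On the lower side, the equilibrative nucleoside carrier Slc29a1 was at 30.6, 31.2 and 32.3 CPM in sham and at 29, 18.6 and 18.5 CPM in I/R, so its I/R libraries were spread widely below a narrow sham range (-0.51 ± 0.182 SE, edgeR adjusted p = 0.419). The riboflavin carrier Slc52a2, with the smallest p of the vitamin carriers, overlapped between the groups (-0.39 ± 0.155 SE, edgeR adjusted p = 0.472).

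Promoters were searched for CACGTG, an E-box that reads the same on both strands and is the core of the CLEAR element of lysosomal genes. The motif was chosen after the values were seen, since Slc49a4 and Slc31a2 are carriers of lysosomes. It was found in 4 of the 5 carriers lower in I/R without overlap, Slc49a4, Slc31a2, Slc17a3 and Slc66a2, the last in 1 of its 2 windows. RefSeq windows (build GRCr8, 250 bases before to 50 after a start) matched 103 of the 139 genes, and 14 of those (13.6%) held the motif in a window, against 7.08% of all 27457 genes with a window. Counted by window, the motif was in 14 of 108 (13.0%), against 6.42% of all 33469. The 139 genes came from the table of expressed genes, while the windows were taken whatever a gene's level here. These shares therefore compare unlike sets. The fifth, the nucleoside carrier Slc29a1, and the 8 carriers with a window that were higher without overlap had none. The motif and these carriers were picked from the same values, so this contrast is a description and no support. The median log2 fold change in I/R against sham was 0.01 for carriers with the motif and 0.05 for the 89 without, and Slc36a1, a lysosomal proton-coupled amino acid carrier with the motif, was at 0.58. A match is a string of letters and no measured site. Shown in lower case, 5′ to 3′ on the gene's strand with the motif in capitals, are the bases before the outermost annotated end of Slc49a4 and short stretches of Slc31a2 and Slc17a3.
Slc49a4, chr11:78500710-78500917 (+): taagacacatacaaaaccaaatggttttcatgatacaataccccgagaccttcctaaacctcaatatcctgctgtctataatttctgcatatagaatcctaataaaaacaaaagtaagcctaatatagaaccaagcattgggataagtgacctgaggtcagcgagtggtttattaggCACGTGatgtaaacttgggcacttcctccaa
Slc31a2, chr5:80753587-80753616 (+): tctcaccggggcCACGTGacccgcgtggcc
Slc17a3, chr17:41723260-41723289 (-): gtgaccaacaacCACGTGcagtagatactt
The motif begins 73 bases before the window's start in Slc49a4, 19 in Slc31a2 and 168 in Slc17a3. Those starts lie 42, 29 and 5948 bases inside the outermost annotated end of the gene, so of these 3 only Slc49a4 has the motif outside the gene.

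**Figure D2:**
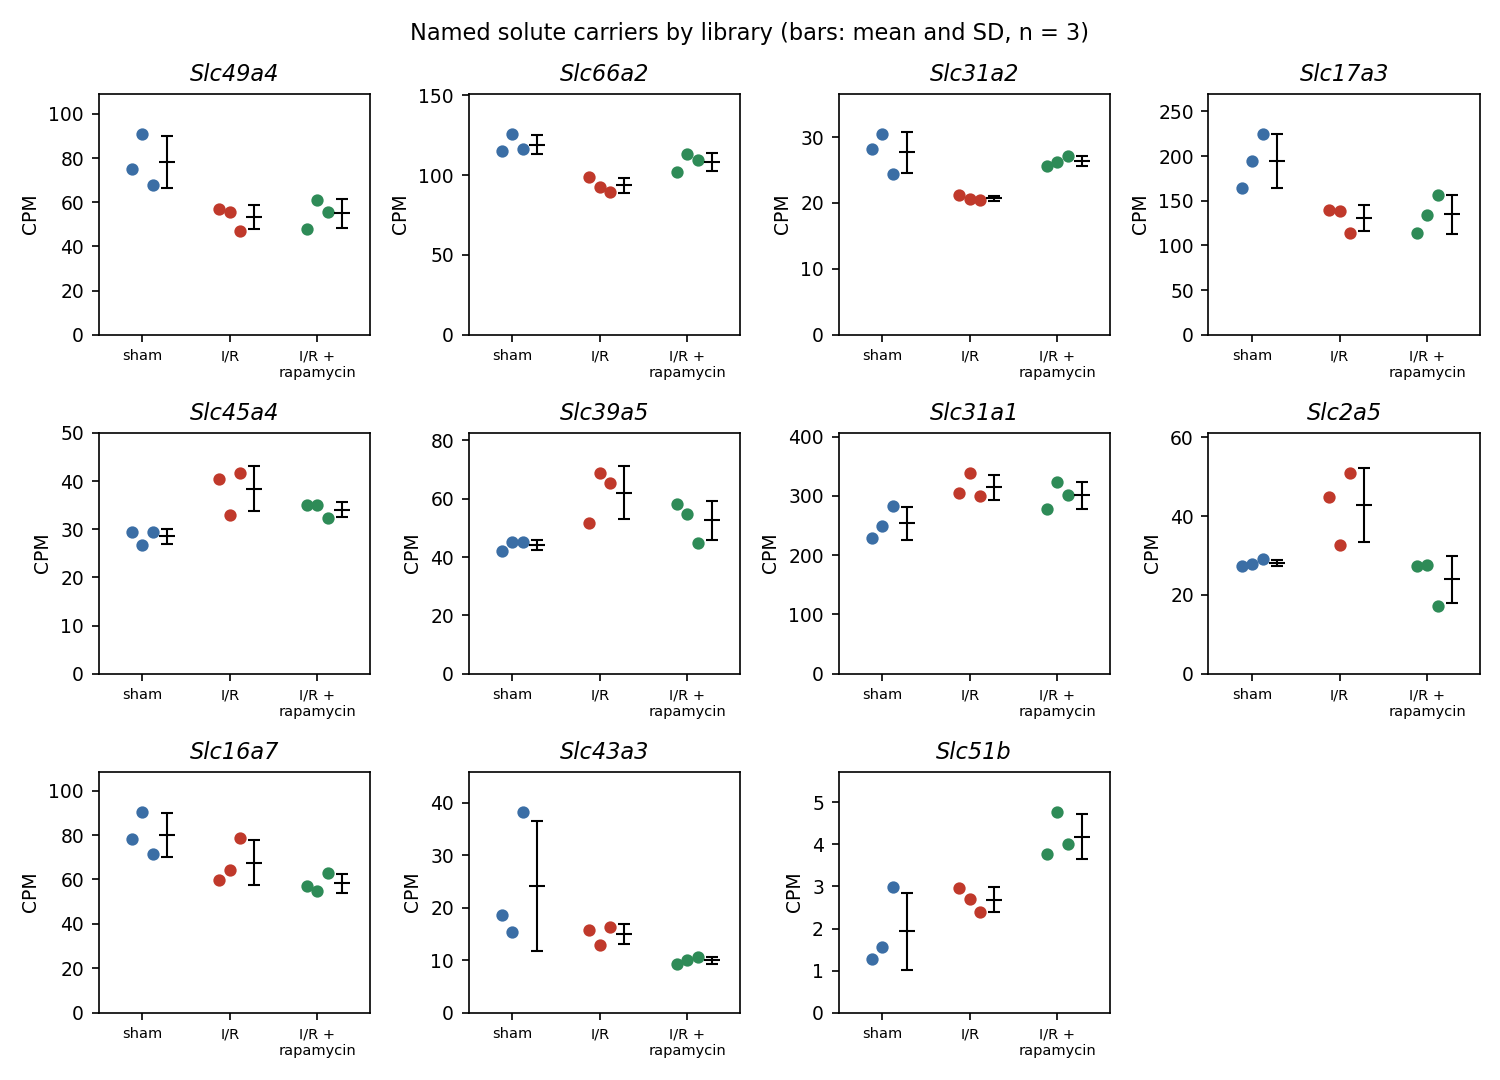
CPM (TMM-scaled) of Slc31a1 and 10 carriers that DESeq2 called in at least 1 comparison, 1 point per library, with mean and SD of each group (n = 3). Slc49a4 and Slc17a3 sit lower in both I/R groups, Slc31a2 and Slc66a2 are lowest in I/R alone, and Slc2a5 is highest there.

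Setting I/R + rapamycin beside I/R asks what the drug changed in the injured kidney. Again none of the 139 genes was called by edgeR, against 0.127% of all genes, and 13 were at an unadjusted p under 0.05 (16.3% of all genes), 3 higher and 10 lower (7.11% and 9.14% of all genes). DESeq2 called 2 of the 139, against 4.43% of all genes, among them Slc2a5, which was lower. The groups did not overlap in 25 genes, 10 higher and 15 lower, against 24.6% of all genes (11.8% and 12.8%). The median log2 fold change was -0.06, beside 0.01 over all genes, and 55 fitted values were above 0, beside 50.8% of all genes. I/R libraries enter both this comparison and the first, so a gene high in I/R tends to appear in both with opposite signs.

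Slc2a5 was at 27.3, 27.6 and 17.1 CPM in I/R + rapamycin, below all 3 I/R libraries. The log2 fold change was -0.84 ± 0.198 (SE, edgeR adjusted p = 0.125, DESeq2 0.00439). Slc31a2 was at 25.7, 26.2 and 27.2 CPM with rapamycin, above every I/R library and inside the sham range (0.35 ± 0.101 SE, edgeR adjusted p = 0.166). The FPKM ratio of Slc31a2 to Slc31a1 was 0.167 ± 0.0112 with rapamycin (SD, n = 3), above all I/R libraries (two-sided exact permutation p = 0.10, the smallest possible), while against sham the groups overlapped (p = 0.30, exact permutation). Slc66a2 also lay between the other groups, at 102, 113 and 110 CPM.

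Slc10a2, the sodium-dependent bile acid transporter, was at 16.3, 13.7 and 12.4 CPM in I/R and 8.62, 12.0 and 8.25 CPM with rapamycin. Its log2 fold change was -0.55 ± 0.181 (SE, edgeR adjusted p = 0.193) without overlap. Slc35g1 gave -0.54 (edgeR adjusted p = 0.233), Slc44a3, of the choline-like carriers, -0.26 (0.219) and Slc28a2, the concentrative nucleoside carrier, -0.23 (0.236), all 3 without overlap. Slc18a2, the vesicular monoamine carrier, was one of the 3 genes higher at an edgeR unadjusted p under 0.05. It was at 4.44, 5.23 and 4.33 CPM in I/R and 6.58, 6.09 and 5.97 CPM with rapamycin (0.41 ± 0.156 SE, edgeR adjusted p = 0.244).

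The carriers of bicarbonate, protons and other small anions had fitted values on one side. In I/R against sham all 13 were above 0, by 0.01 to 0.40 with a median of 0.11, and in I/R + rapamycin against I/R 11 of 13 were below 0 with a median of -0.19. By edgeR none was called and 1 and 2 had an unadjusted p under 0.05 (9.42% and 16.3% of all genes). The DESeq2 calls numbered 0 and 1 (1.49% and 4.43% of all genes). With the trend of fold change on transcript length removed the counts were 12 of 13 (median 0.06) and 9 of 13 (median -0.10), and without sham 3 and I/R 1 they were 10 of 13 and 9 of 13. Slc9a3, the main sodium-proton exchanger of the proximal tubule brush border, was at 178, 148 and 204 CPM in sham, near 191 CPM in every I/R library and at 179 to 181 CPM with rapamycin. Slc26a6, an apical anion exchanger, and Slc9a4, a sodium-proton exchanger, were the 2 above 0 in I/R + rapamycin against I/R, at 0.17 and 0.16, the latter with overlapping groups. Slc26a6 was at 7.14, 6.45 and 7.00 CPM in sham, 8.32 to 8.38 CPM in I/R and 8.85, 10.3 and 9.05 CPM with rapamycin, with no overlap between any 2 groups (0.45 ± 0.129 SE against sham, edgeR adjusted p = 0.185). In the amino acid and peptide family 14 of 16 fitted values were above 0 in I/R against sham, with a median of 0.24. EdgeR called none of them. At an unadjusted p under 0.05 there were 4, 2 higher and 2 lower (9.42% of all genes). DESeq2 called 1 (1.49% of all genes), Slc66a2, which was lower.

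**Figure D3:**
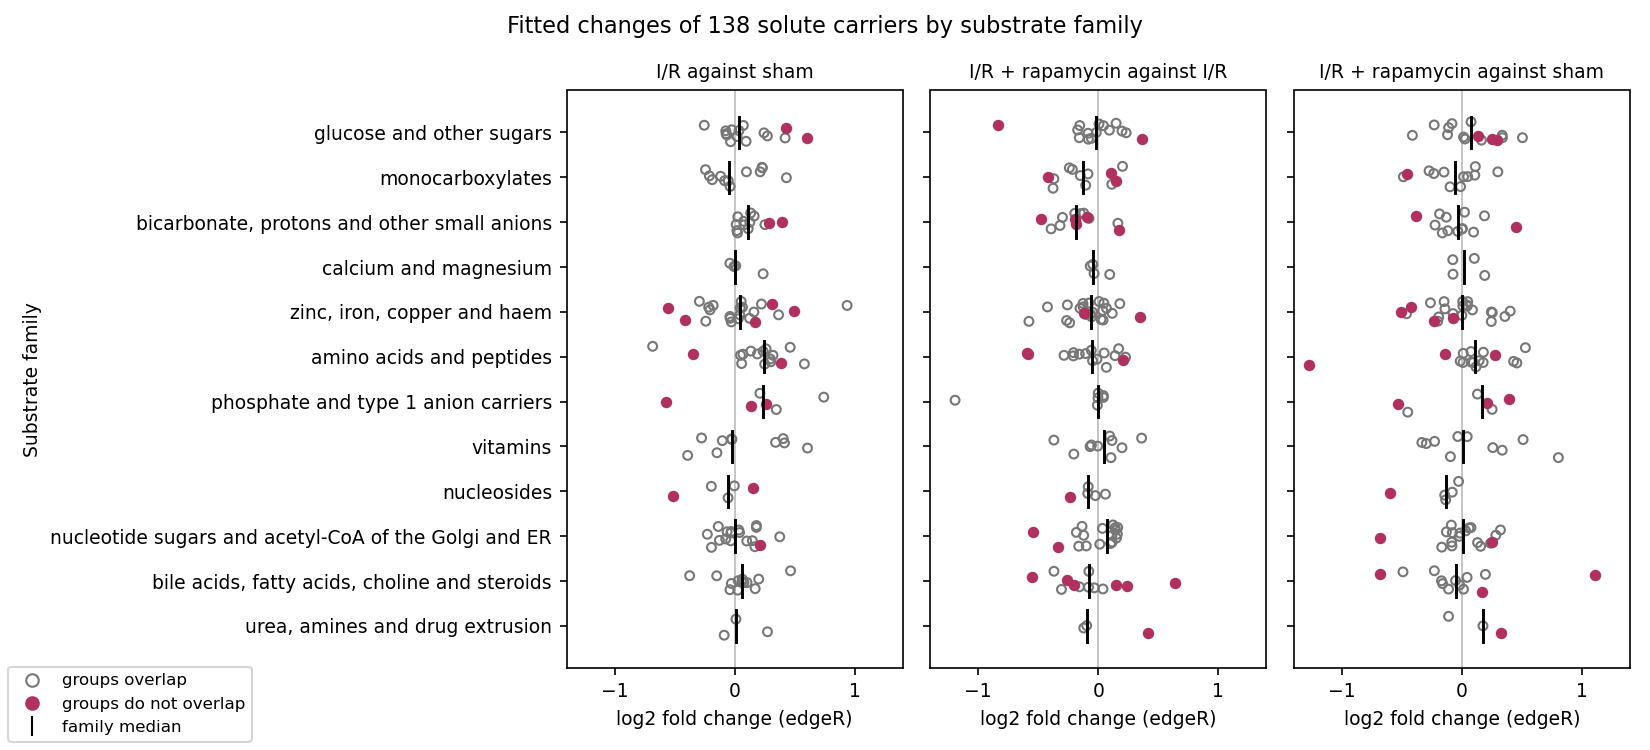
Fitted log2 fold changes (edgeR) of the 138 carriers in each comparison, by substrate family, with filled points where the 3 libraries of one group do not overlap the other group and a black bar at the family median. Most points lie within 0.5 of 0 (130 of the 139 genes in I/R against sham), and the 13 carriers of bicarbonate, protons and other small anions are all above 0 in I/R against sham.

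Setting I/R + rapamycin beside sham asks how the treated kidney differed from the uninjured one. No carrier was called by edgeR, against 0.156% of all genes. At an unadjusted p under 0.05 there were 21, 11 higher and 10 lower, against 13.8% of all genes (6.06% higher and 7.75% lower). In 23 the groups did not overlap, 11 higher and 12 lower, against 19.3% of all genes (9.69% and 9.65%). DESeq2 called 5, against 3.14%: Slc43a3, Slc49a4, Slc17a3 and Slc16a7 lower and Slc51b higher. The median was 0.01, beside 0.00 over all genes, and 73 fitted values were above 0, beside 50.2% of all genes.

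Slc49a4 and Slc17a3 were low with rapamycin as they were in I/R, Slc49a4 at 48.1, 61.2 and 55.8 CPM (a log2 fold change of -0.50 ± 0.13 SE, edgeR adjusted p = 0.16) and Slc17a3 at 114, 134 and 156 CPM (-0.53 ± 0.147 SE, edgeR adjusted p = 0.18). Slc43a3, a nucleobase carrier, was at 18.7, 15.4 and 38.3 CPM in sham, at 15.8, 12.9 and 16.4 CPM in I/R and at 9.31, 9.99 and 10.7 CPM with rapamycin. The log2 fold change against sham was -1.27 ± 0.297 (SE, edgeR adjusted p = 0.139, DESeq2 0.00139), and without sham 3 it was -0.77 (edgeR adjusted p = 0.104). The rapamycin libraries were the 3 lowest either way. Slc16a7, a high-affinity lactate and pyruvate carrier, was at 78.3, 90.5 and 71.3 CPM in sham and at 57.2, 54.6 and 62.9 CPM with rapamycin (-0.46 ± 0.123 SE, edgeR adjusted p = 0.173, DESeq2 0.0364).

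Slc51a and Slc51b encode the 2 subunits of the organic solute transporter, which exports bile acids and steroids across the basolateral membrane and needs both. Their fitted values lay on opposite sides of 0. Slc51a was at 11.6, 12.5 and 18.4 CPM in sham and at 8.13, 7.65 and 10.7 CPM with rapamycin (a log2 fold change of -0.68 ± 0.197 SE, edgeR adjusted p = 0.189), and without sham 3 its value was -0.45 (edgeR adjusted p = 0.393). Slc51b was at 1.27, 1.57 and 2.98 CPM in sham and at 3.76, 4.77 and 4.02 CPM with rapamycin (1.11 ± 0.307 SE, edgeR adjusted p = 0.181, DESeq2 0.0404). For Slc51b the value without sham 3 was 1.56 (edgeR adjusted p = 0.0505). The FPKM ratio of Slc51b to Slc51a was 0.204, 0.234 and 0.303 in sham, 0.523, 0.415 and 0.442 in I/R and 0.867, 1.17 and 0.702 with rapamycin. No 2 groups overlapped in this ratio, and each of the 3 comparisons gave the smallest p possible (two-sided exact permutation test, p = 0.10). Both ratios, this one and that of Slc31a2 to Slc31a1, were chosen after the values were seen, so their p-values add no support to those values.

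Other genes of these transport routes were counted in the same way. Of 42 listed carriers with other names, partner proteins, carbonic anhydrases, exporters and metal-responsive genes, 34 were measured by name and edgeR called none in any comparison. At an unadjusted p under 0.05 there were 4 higher and 3 lower in I/R against sham (4.83% and 4.59% of all genes). With rapamycin there were 2 higher and 4 lower both against I/R (7.11% and 9.14% of all genes) and against sham (6.06% and 7.75%). DESeq2 called Rhcg, an ammonia channel of the collecting duct, lower in I/R against sham (edgeR log2 fold change -0.33, DESeq2 adjusted p = 0.046) and in I/R + rapamycin against sham (-0.41, DESeq2 0.00287). It also called Pdzk1ip1, a small membrane protein that binds the scaffold Pdzk1, higher in I/R + rapamycin against I/R (0.52, DESeq2 0.00269). The metallothionein gene Mt2A, whose product buffers zinc and copper, was at 505, 653 and 437 CPM in sham, at 422, 419 and 282 CPM in I/R and at 333, 328 and 309 CPM with rapamycin. Every library of both injured groups was below sham (-0.72 ± 0.178 SE with rapamycin, edgeR adjusted p = 0.146, DESeq2 0.00403). Its relative Mt1 overlapped between I/R and sham (-0.23) and was lower without overlap with rapamycin (-0.49 against sham). The metal-responsive gene Mtf1 overlapped with sham in both (0.08 and 0.01).

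Some carriers varied widely between libraries of 1 group. The coefficient of variation of CPM over the 9 libraries was smallest for Slc30a5, a zinc carrier of the secretory pathway, at 0.0349 (56.8 to 63.6 CPM). Slc39a13, Slc19a2, Slc16a11 and Slc20a1 followed at 0.0519 to 0.0588. It was largest for Slc17a9, the vesicular nucleotide carrier, at 0.583, with 6.31, 18.3 and 25.6 CPM among the I/R libraries alone. Slc43a3 (0.538), Slc23a3 (0.525), the zinc exporter Slc30a1 (0.482) and the haem carrier Slc48a1 (0.423) came next. The family of Slc17a9 held the lowest log2 fold change of the 139 in I/R + rapamycin against I/R, -1.19. Groups overlapped there in all 6 of its genes. Slc30a1 was at 99.7 CPM in I/R 3 and at 27.7 to 50.7 CPM in the other 8 libraries. Slc48a1 had separate levels that did not follow the groups: 4 libraries (sham 1, sham 2, I/R 2 and I/R + rapamycin 1) were at 30.8 to 34.8 CPM and the other 5 at 68.2 to 84.3 CPM.

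Some of that variation was shared. In 10 of the 139 carriers (7.19%, against 3.76% of all genes) the 3 highest libraries were I/R 3, I/R + rapamycin 1 and I/R + rapamycin 2. They include the peptide carrier Slc15a2, the glutamine carrier Slc38a3, the riboflavin carrier Slc52a3 and Slc23a1 and Slc23a3 of the ascorbate carrier family. Slc38a3 was at 86.7, 70.6 and 68.3 CPM in those libraries and at 26.7 to 57.5 CPM in the other 6. Slc15a2 was at 239, 204 and 212 CPM there and at 90.8 to 151 CPM elsewhere. The organic anion carrier Slco1a6, which is outside the 139, was at 465, 473 and 412 CPM in the same libraries and at 52.3 to 192 CPM in the others. Umod, a marker of the thick ascending limb, was at 2758 CPM in I/R 3, 3067 CPM in I/R + rapamycin 1 and 1997 CPM in I/R + rapamycin 2, against 1367 to 2047 CPM elsewhere. Of the same marker list, Slc12a1 was at 1160, 1283 and 748 CPM there, against 542 to 615 CPM elsewhere. Cldn10 was also highest in those libraries, and Cldn16 overlapped with the others. Egf was not higher there, at 1732, 1473 and 1302 CPM against 1448 to 1838 CPM elsewhere. The part of the cell makeup in this pattern was not tested. In another 10 carriers (7.19%, against 1.87% of all genes) the 3 highest were sham 3, I/R 1 and I/R 2, among them Slc16a12, a creatine carrier, at 255, 301 and 288 CPM there and 172 to 253 CPM elsewhere. Both sets were picked by their pattern, so these counts are a description.

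**Figure D4:**
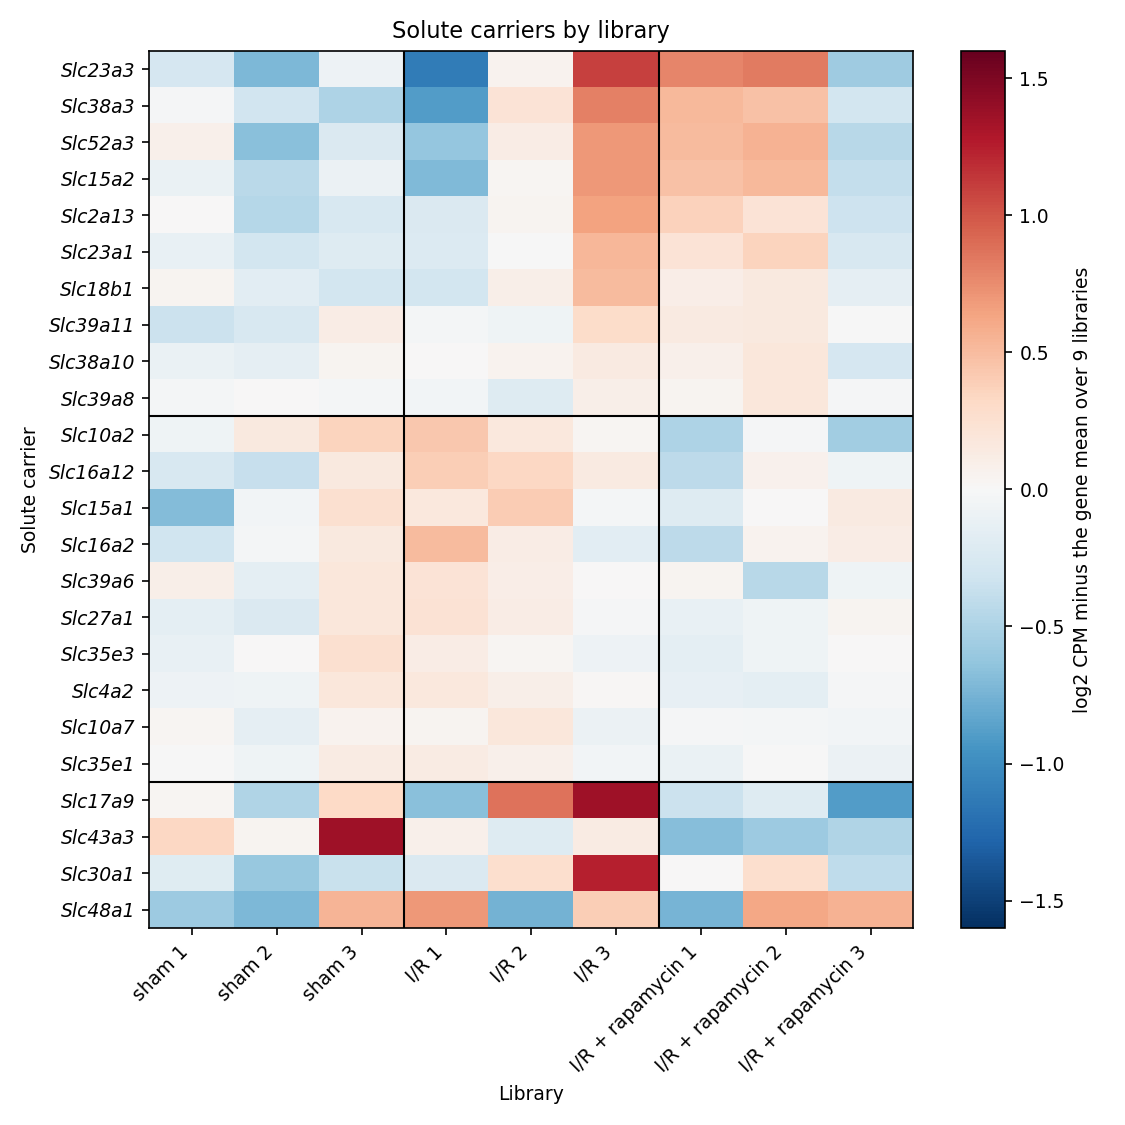
Log2 CPM minus each gene's mean over the 9 libraries, for the 10 carriers highest in I/R 3, I/R + rapamycin 1 and I/R + rapamycin 2 (top block), the 10 highest in sham 3, I/R 1 and I/R 2 (middle block) and 4 of the most variable carriers (bottom block). Each column is a library, and black lines separate the 3 groups. The dark cells of Slc43a3 and Slc30a1 are single libraries, while Slc17a9 is highest in sham 3, I/R 2 and I/R 3.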

How the data were processed

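Per the labels' protocols, kidney poly(A) RNA was sequenced in paired 150 bp reads, all in batch 1. Tools listed by the submitters' processing notes were HISAT2, StringTie, cutadapt and DESeq2, on build Rnor_6.0. Their versions, the annotation, and how strand and reads were counted were not given in the sources used here, so overlapping or antisense genes could share reads. The authors deposited whole-number read counts for 30454 gene IDs. The authors also deposited FPKM for 11235 genes, all of them reaching 1 FPKM in 8 or 9 of the libraries. Counts were tested with edgeR 4.0.16 in R 4.3.3 (TMM, default filter, robust quasi-likelihood, all 9 libraries, no covariates), adjusted by Benjamini-Hochberg over 17335 genes; all 139 members passed the filter. SE is the log2 fold change over the root of F. CPM uses TMM-scaled totals. Replicate numbers did not pair libraries (correlations of deviations from -0.213 to 0.136).

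The members and lists were chosen with earlier results of these data known. Named were, per comparison, the 8 members with the smallest p, per family the most abundant and the one with the smallest p, and the 5 most and 5 least variable. A gene picked by this rule is left out of the report. Further genes, the E-box and the FPKM ratios were picked after seeing values. Alternatives tried were DESeq2 1.42.0, other size factors and filters, fewer libraries, the replicate block, limma 3.58.1 on log2(FPKM + 1) and log2(FPKM + 0.1), removal of the length trend and other thresholds.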

Additional observations from a re-analysis of the deposited data

How the results depend on the processing

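The count of carriers called was 0 in each comparison with edgeR and all libraries. DESeq2 called 6, 2 and 5 (I/R against sham, I/R + rapamycin against I/R, I/R + rapamycin against sham). Without sham 3 and I/R 1 together, edgeR called 2 in I/R + rapamycin against I/R, Slc17a9 and Slc35c2, and 1 against sham, Slc51b. Over all 17544 genes tested in that setting it called 128 and 104, against 22 and 27 of 17335 with all libraries. The cause was not tested. Leaving out each library in turn gave 0 to 0 calls. The fit with the replicate number as a block called 0, and a library correlated best with its own number in 2 of 9 cases. Over 28 named results and their alternatives, 583 values in all, every one kept its direction and 14 passed a threshold they had not passed before, 13 of them in DESeq2. The named results were picked for small p in these same libraries, so a kept direction is no support for them. Family medians could turn. Without sham 3 and I/R 1, nucleosides in I/R against sham went from -0.05 to 0.16. Monocarboxylates in I/R + rapamycin against I/R went from -0.13 to 0.02. Of depth, the lowest count of a carrier in any library was 68.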
